A study of Mus musculus with 12 samples.

Results

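The transcripts of 9 genes of the tumour necrosis factor (TNF) superfamily were followed in RNA sequencing of mouse liver tumour samples: the ligand genes Tnfsf10, Fasl, Tnf, Lta and Ltb, and the receptor genes Tnfrsf10b, Fas, Tnfrsf1a and Tnfrsf1b. They were listed by name as death ligands and receptors, with no threshold on any value, and all 9 were found among the 21878 genes of the count table. Because their levels in these 12 libraries were known when the list was drawn up, their levels and fold changes are given as a description and carry no p-value.

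The 12 sequenced total RNA samples carry the labels liver and Hepa1-6, the name of an established line of mouse hepatoma cells, and form 4 groups of 3 libraries. The combination group received IFNa (interferon alpha) and antiPD1 (an antibody against the T cell checkpoint receptor PD-1), the antiPD1 group received the antibody alone, the IFNa group received interferon alone, and the untreated group received neither. No dose, duration, mouse strain, age or genetic change is named in the labels, and nothing in them says whether the replicates were separate animals or cultures, so that p-values measure the spread between these samples, which may be technical. Afp and Alb, which mark hepatoma and liver cells, had at least 5703 and 6866 CPM (counts per M, mega, after TMM scaling) in every library, and transcripts of T cells and macrophages were present in all of them as well.

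Death ligands are trimeric proteins of the TNF superfamily that bind receptors on neighbouring cells. Receptors with a death domain (Tnfrsf10b, Fas and Tnfrsf1a here) recruit Fadd or Tradd and, through caspase-8, can start apoptosis, or, through Ripk3 and Mlkl, necroptosis, while the same complexes can also activate NF-kB. Activated T cells, natural killer cells and macrophages are the usual sources of the ligands, and hepatocytes are known for their sensitivity to Fas.

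Library totals ranged from 31.3 to 38.5 M counts, and all 9 genes passed the low-count filter that left 14330 genes tested. A total of 3 counts, taken as the detection floor, equalled 0.0786 to 0.102 CPM, and the lowest count of any of the 9 genes was 6. A pair of libraries stood apart from their groups in a principal component analysis. AntiPD1 replicate 3 lay at 91.9 on the first component, against 22.9 and 10.8 for the other antiPD1 libraries, and IFNa replicate 1 stood alone on the second. For the values of the 9 genes that these libraries moved most, the value without them is given beside the value with all libraries.

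The immediate upstream sequences of the 4 genes with the highest fitted fold changes over untreated libraries are shown first, as the sequence context of the genes that the values below turn on. Each is read 5′ to 3′ on the gene's own strand from RefSeq's GRCm38.p6 (mm10), and ends before the annotated start. The stretches are chr3:27316827-27317027 (plus strand) for Tnfsf10, chr1:161788496-161788745 (minus strand) for Fasl, chr17:35202008-35202257 (minus strand) for Tnf and chr4:145246871-145247120 (minus strand) for Tnfrsf1b. Capitals mark matches to the motifs named in the next paragraph.
Tnfsf10: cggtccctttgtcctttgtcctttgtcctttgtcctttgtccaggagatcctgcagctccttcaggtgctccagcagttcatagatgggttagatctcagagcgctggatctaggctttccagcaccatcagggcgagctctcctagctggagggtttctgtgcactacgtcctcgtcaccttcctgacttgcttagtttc
Fasl: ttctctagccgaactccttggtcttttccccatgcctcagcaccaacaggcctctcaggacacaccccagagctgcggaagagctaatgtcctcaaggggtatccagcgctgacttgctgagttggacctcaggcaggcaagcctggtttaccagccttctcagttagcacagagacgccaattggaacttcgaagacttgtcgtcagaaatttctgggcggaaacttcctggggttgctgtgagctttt
Tnf: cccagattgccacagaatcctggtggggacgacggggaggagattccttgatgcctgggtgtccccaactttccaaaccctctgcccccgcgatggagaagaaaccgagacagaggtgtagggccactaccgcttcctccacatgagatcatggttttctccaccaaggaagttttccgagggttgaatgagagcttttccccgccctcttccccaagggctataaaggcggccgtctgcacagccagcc
Tnfrsf1b: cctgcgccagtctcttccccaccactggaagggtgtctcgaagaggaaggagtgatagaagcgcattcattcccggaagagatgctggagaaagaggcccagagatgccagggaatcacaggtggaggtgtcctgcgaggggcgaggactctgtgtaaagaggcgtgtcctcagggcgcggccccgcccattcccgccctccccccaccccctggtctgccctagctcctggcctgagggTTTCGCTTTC

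The 250 bases before the RefSeq start, available for 8 of the 9 genes, were searched on both strands for an interferon-stimulated response element (ISRE, GAAA, any 2 bases, GAAA) and an NF-kB site (GGGA, any base, TTTCC), and no matches of different motifs overlapped. The Tnfrsf1b stretch held an ISRE match on the opposite strand in its last 10 bases. The ISRE letters occurred in 2.98% and the NF-kB letters in 0.356% of 32851 mouse promoters of the same length. Ltb held an NF-kB match from -87 to -78, counted from the start. For Tnfsf10, Fasl, Tnf, Lta, Fas and Tnfrsf1a these letters were not in this window, which says nothing about more distant sites or other spellings.

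Tnfsf10 (chr3:27317028-27342427, plus strand, GENCODE M21 on mm10) encodes TRAIL, a ligand that engages Tnfrsf10b. Its level was 17.3, 16.4 and 18.7 CPM in combination libraries, 8.95, 9.39 and 16.3 CPM in antiPD1 libraries, 3.39, 4.69 and 5.63 CPM in IFNa libraries and 2.17, 2.23 and 4.58 CPM in untreated libraries. All combination and antiPD1 libraries were above all IFNa and untreated libraries, the IFNa and untreated groups overlapped, and the lowest combination library lay just above antiPD1 replicate 3. The fitted log2 fold change (± standard error, as for all log2 changes below) over untreated was 2.54 ± 0.35 for the combination, 1.94 ± 0.34 for antiPD1 and 0.61 ± 0.33 for IFNa. These comparisons share the untreated libraries. Leaving out untreated replicate 3, which had more than the other untreated libraries, moved these values to 2.98, 2.38 and 1.05. Without antiPD1 replicate 3 the antiPD1 value was 1.62.

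Against the single treatments, Tnfsf10 was higher in combination libraries by 1.93 ± 0.34 on the log2 scale over IFNa and by 0.60 ± 0.32 over antiPD1. AntiPD1 replicate 3 lay nearest to the combination libraries, and the difference from antiPD1 was 0.92 without it. The interaction term, which compares the effect of IFNa with and without antiPD1, was -0.01 ± 0.44 on the log2 scale.

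**Figure D1:**
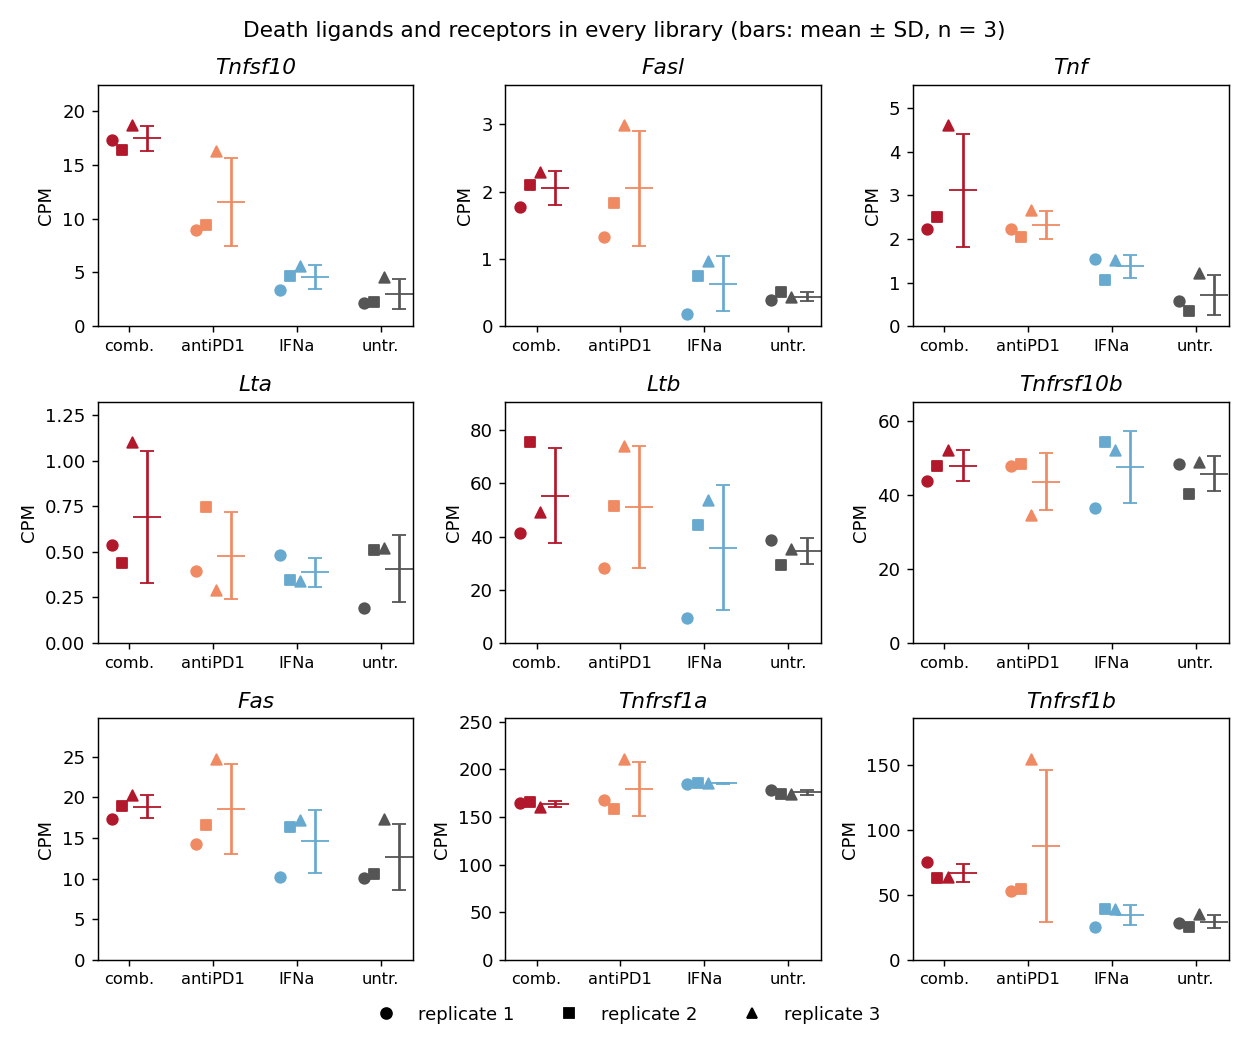
Level of each of the 9 genes in CPM (linear axis from 0) in every library, grouped from left to right as combination, antiPD1, IFNa and untreated; points are libraries and bars show mean ± SD (n = 3). Tnfsf10 was 16.4 to 18.7 CPM in the combination and 2.17 to 4.58 CPM in untreated libraries, whereas Tnfrsf10b lay between 34.8 and 54.4 CPM in all groups, and antiPD1 replicate 3 carried the highest Tnfrsf1b value, 155 CPM.

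Fasl (chr1:161780689-161788495, minus strand) encodes the ligand of Fas, carried by activated T cells and natural killer cells. It was measured at 1.78, 2.09 and 2.29 CPM in combination libraries, 1.33, 1.83 and 2.99 CPM in antiPD1 libraries, 0.180, 0.744 and 0.970 CPM in IFNa libraries and 0.389, 0.508 and 0.428 CPM in untreated libraries. Every library that received the antibody was above every library that did not. The log2 fold change over untreated was 2.21 ± 0.53 for the combination, 2.20 ± 0.53 for antiPD1 and 0.52 ± 0.53 for IFNa, and the combination differed from antiPD1 by 0.00 ± 0.49. Counts per library were 6 to 92, so the counts behind each value are few. IFNa replicate 1 held the lowest value, and without it the IFNa log2 change was 0.95. Without antiPD1 replicate 3 the antiPD1 log2 change was 1.85.

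Tnf (chr17:35199381-35202007, minus strand) encodes the founding cytokine of the family, made chiefly by macrophages and T cells, which binds both Tnfrsf1a and Tnfrsf1b. It had 2.23, 2.50 and 4.61 CPM in combination libraries, 2.24, 2.05 and 2.66 CPM in antiPD1 libraries, 1.53, 1.06 and 1.52 CPM in IFNa libraries and 0.584, 0.339 and 1.22 CPM in untreated libraries. The antibody-treated libraries were again all above the others, IFNa libraries overlapped untreated ones through untreated replicate 3, and combination replicate 3 was well above its group. Counts per library were few, at 79 to 167 in combination, 74 to 82 in antiPD1, 37 to 58 in IFNa and 10 to 40 in untreated libraries. The log2 fold change over untreated was 2.11 ± 0.46 for the combination, 1.69 ± 0.46 for antiPD1 and 0.93 ± 0.46 for IFNa. Without untreated replicate 3 these became 2.74, 2.31 and 1.56. Without combination replicate 3 the combination value was 1.71, and the log2 difference between combination and antiPD1, 0.43 ± 0.43 with all libraries, was 0.03.

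Lta and Ltb, the neighbours of Tnf on chromosome 17, were called in no comparison of the genome-wide test given below. Their Pearson r of log2 CPM with Tnf over the 12 libraries was 0.47 and 0.31. The genes lie within 10913 bp in the order Ltb (chr17:35194439-35196320, plus strand), Tnf and Lta (chr17:35203165-35205351, minus strand), with 3060 bp between Ltb and Tnf and 1157 bp between Tnf and Lta. Lta encodes lymphotoxin alpha, which as a homotrimer binds the TNF receptors, and Ltb encodes lymphotoxin beta, which anchors it at the cell surface for the receptor Ltbr.

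Lta was near the floor in all groups, with 0.536, 0.436 and 1.10 CPM in combination libraries, 0.397, 0.748 and 0.292 CPM in antiPD1 libraries, 0.481, 0.343 and 0.341 CPM in IFNa libraries and 0.195, 0.508 and 0.519 CPM in untreated libraries. Its 4 groups overlapped, and counts were 6 to 40 per library. The log2 change over untreated was 0.76 ± 0.53 for the combination, 0.24 ± 0.53 for antiPD1 and -0.07 ± 0.54 for IFNa, none of which was called. The antiPD1 value was 0.50 without antiPD1 replicate 3, and the IFNa value was -0.25 without IFNa replicate 1.

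Ltb was abundant, with 41.5, 75.6 and 49.2 CPM in combination libraries, 28.4, 51.3 and 74.2 CPM in antiPD1 libraries, 9.40, 44.4 and 53.8 CPM in IFNa libraries and 38.7, 29.1 and 35.5 CPM in untreated libraries. Combination libraries lay above untreated ones, and the antiPD1 and IFNa groups spanned the untreated values, with IFNa replicate 1 the lowest library of all. The log2 change over untreated was 0.69 ± 0.53 for the combination, 0.57 ± 0.53 for antiPD1 and 0.06 ± 0.53 for IFNa. The antiPD1 change of Ltb was 0.22 without antiPD1 replicate 3, and its IFNa change was 0.51 without IFNa replicate 1. Annotated microRNA genes overlap Lta (Mir6974) and Ltb (Mir6973a), Gm27818 overlaps Fas, and the strand setting of the counting is not given, so reads of overlapping genes cannot be told apart.

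Among the receptors, Tnfrsf10b (chr14:69767472-69784411, plus strand), the mouse death receptor for TRAIL, stayed close to 1 level. It had 43.9, 47.8 and 52.2 CPM in combination libraries, 47.8, 48.4 and 34.8 CPM in antiPD1 libraries, 36.5, 54.4 and 52.2 CPM in IFNa libraries and 48.3, 40.3 and 48.9 CPM in untreated libraries. All 4 groups overlapped, and the lowest values belonged to antiPD1 replicate 3 and IFNa replicate 1. The log2 change over untreated was 0.07 ± 0.17 for the combination, -0.07 ± 0.17 for antiPD1 and 0.06 ± 0.17 for IFNa. Leaving out antiPD1 replicate 3 gave 0.08 for antiPD1, and leaving out IFNa replicate 1 gave 0.22 for IFNa.

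Tnfrsf1a (chr6:125349362-125362484, plus strand), the death-domain TNF receptor found on most cells, was the most abundant of the 9 genes. Its level was 164, 166 and 161 CPM in combination libraries, 168, 159 and 211 CPM in antiPD1 libraries, 185, 186 and 186 CPM in IFNa libraries and 178, 175 and 174 CPM in untreated libraries. The combination group lay below and the IFNa group above the untreated group without overlap, by small amounts: the log2 change over untreated was -0.10 ± 0.10 for the combination and 0.08 ± 0.10 for IFNa. The antiPD1 change was 0.03 ± 0.10, with antiPD1 replicate 3 above every other library, and -0.09 without that library.

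Fas (chr19:34290666-34327772, plus strand) encodes the receptor of Fas ligand. It had 17.4, 19 and 20.3 CPM in combination libraries, 14.2, 16.6 and 24.8 CPM in antiPD1 libraries, 10.2, 16.4 and 17.2 CPM in IFNa libraries and 10.1, 10.6 and 17.3 CPM in untreated libraries. Combination libraries were all above untreated ones, by a narrow margin over untreated replicate 3, and the other treated groups overlapped the untreated group. The log2 change over untreated was 0.57 ± 0.28 for the combination, 0.55 ± 0.28 for antiPD1 and 0.20 ± 0.27 for IFNa. With antiPD1 replicate 3 left out the antiPD1 change was 0.29, and with IFNa replicate 1 left out the IFNa change was 0.41.

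Tnfrsf1b (chr4:145213463-145246870, minus strand) encodes the TNF receptor without a death domain, found mainly on leukocytes and endothelium. It had 75.0, 62.8 and 63.5 CPM in combination libraries, 53.0, 54.7 and 155 CPM in antiPD1 libraries, 25.6, 38.8 and 39.1 CPM in IFNa libraries and 28.3, 24.8 and 35.2 CPM in untreated libraries. Antibody-treated libraries were all above the rest, and antiPD1 replicate 3 was far above all others. The log2 change over untreated was 1.19 ± 0.37 for the combination, 1.57 ± 0.37 for antiPD1 and 0.23 ± 0.37 for IFNa. Without antiPD1 replicate 3 the antiPD1 value was 0.88, and the log2 difference between combination and antiPD1, -0.38 ± 0.36 with all libraries, was 0.31.

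**Figure D2:**
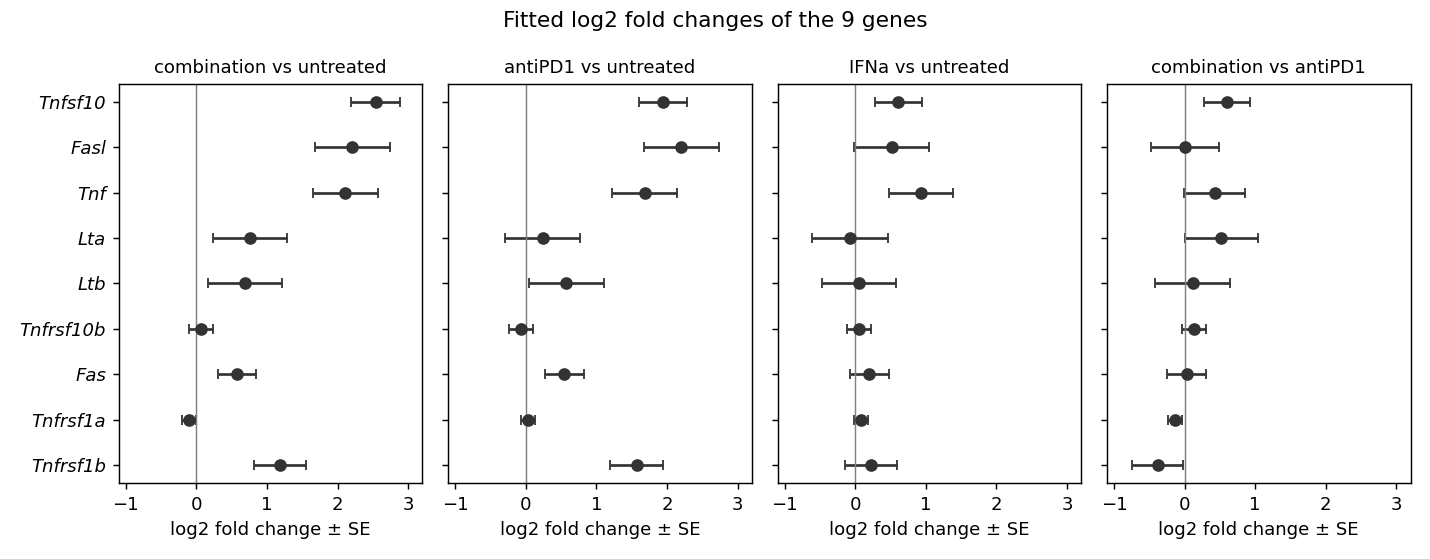
Fitted log2 fold changes (points) with standard errors (bars) of the 9 genes, with panels from left to right for combination, antiPD1 and IFNa over untreated, and combination over antiPD1. Tnfsf10, Fasl and Tnf lay at 2.54, 2.21 and 2.11 in the combination, against -0.10 for Tnfrsf1a and 0.07 for Tnfrsf10b.

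The genome-wide test (edgeR quasi-likelihood, adjusted p below 0.05) called 3 of the 9 genes higher in combination than in untreated libraries (Tnfsf10, Fasl and Tnf) when 12.6% of all tested genes were called in either direction and 7.58% were called higher. In antiPD1 libraries it called 4 higher (the same 3 and Tnfrsf1b), with 14.8% of all genes called and 9.76% called higher. It called 1 higher in combination over IFNa (Tnfsf10), with 0.956% of all genes called and 0.342% called higher. For IFNa over untreated, combination over antiPD1 and the interaction, none of the 9 and 0% of all genes were called by edgeR. In those comparisons 801, 682 and 868 genes had an unadjusted p below 0.05, and DESeq2 called 37, 15 and 55 genes. Since these levels were known when the genes were listed, the counts are a description only.

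The calls depended on single libraries. For antiPD1 over untreated, Tnfsf10 alone was called without antiPD1 replicate 3 (2.26% of all genes), and leaving out either of untreated replicates 1 and 2 gave no call among the 9, in fits that called 0.0344% and 0.0412% of all genes. Tnf was not called there without antiPD1 replicate 1 or combination replicate 2. For the combination over untreated, Tnfsf10 alone was called without untreated replicate 1 or 2 (0.557% and 0.797% of all genes), or without any of combination replicates 1, 2 and 3 (1.43%, 0.983% and 0.227%). Tnfrsf1b was called in addition to Tnfsf10, Fasl and Tnf without any of antiPD1 replicates 1, 2 and 3 (11.8%, 13% and 20.1% of all genes). For the combination over IFNa, Tnfsf10 was not called without any of the combination or IFNa replicates (0% to 0.717% of all genes), and Tnfrsf1b was called beside it without antiPD1 replicate 3 (10% of all genes). With antiPD1 replicate 3 and IFNa replicate 1 both left out, Tnfsf10, Fasl and Tnfrsf1b were called for antiPD1 over untreated (10.7% of all genes) and for combination over IFNa (9.07%), and Tnf as well for combination over untreated (29.2%).

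The test used also changed which of the 9 genes were called. For the combination over untreated, Tnfrsf1b was called too in DESeq2 (13.6% of all genes), in both filtered limma-trend fits on FPKM (8.72% and 9.42%), with the replicate number as a block (15.2%) and with only the groups compared (27.2%). Fas was called too with the block. The filtered limma-trend fits did not test Fasl and Lta. For antiPD1 over untreated, Tnf and Tnfrsf1b were not called in limma-trend without a filter (4.09% of all genes), and none of the 9 was called with only the groups compared (0%). For the combination over IFNa, Fasl was called beside Tnfsf10 in DESeq2 (7.59%) and Tnfrsf1b beside Tnfsf10 with only the groups compared (8.09%). Each share is of the genes that its fit held. For DESeq2 these were all 21878 genes of the count table, against 14330 in the main edgeR fit, so the shares are not directly comparable.

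Counted by groups that did not overlap in CPM, 7 of the 9 genes separated combination from untreated libraries (6 higher, and Tnfrsf1a lower), beside 49.5% of all tested genes in either direction and 24.7% higher. For antiPD1 over untreated the count was 4 (Tnfsf10, Fasl, Tnf and Tnfrsf1b), beside 36% in either direction and 17.5% higher, and for IFNa over untreated it was 1 (Tnfrsf1a, higher), beside 10.2% and 4.96%. Between combination and antiPD1 only Tnfsf10 did not overlap (higher), beside 14.2% and 7.49%. Between combination and IFNa 6 did not, with Tnfsf10, Fasl, Tnf, Fas and Tnfrsf1b higher and Tnfrsf1a lower, beside 36.8% and 20.3%.

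Levels of different genes were compared per transcript length, in the authors' FPKM (fragments per kilobase and M fragments). In combination libraries the order was Tnfrsf1a (71.9 ± 1.75 FPKM, mean ± SD, n = 3), Ltb (52.1 ± 18.1), Tnfrsf10b (13.4 ± 1.30), Tnfrsf1b (13.0 ± 1.28), Fas (6.59 ± 0.354), Tnfsf10 (3.55 ± 0.285), Tnf (1.69 ± 0.709), Fasl (0.825 ± 0.136) and Lta (0.348 ± 0.213). The ranges of Tnfrsf1a and Ltb, and of Tnfrsf10b and Tnfrsf1b, overlapped. In untreated libraries the order in FPKM was Tnfrsf1a (71.5 ± 2.84), Ltb (30.5 ± 5.15), Tnfrsf10b (11.6 ± 1.53), Tnfrsf1b (5.11 ± 1.15), Fas (3.93 ± 1.59), Tnfsf10 (0.553 ± 0.290), Tnf (0.353 ± 0.227), Lta (0.187 ± 0.0907) and Fasl (0.172 ± 0.0227). Here Tnfrsf1b overlapped Fas, and Tnfsf10, Tnf and Lta overlapped their next neighbours. In every one of the 12 libraries Tnfrsf1a ranked first and Fas held rank 5, and apart from Ltb each ligand ranked below all 4 receptors.

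Ratios of FPKM within a library set each ligand beside its receptor. Tnfsf10 equalled 29.3%, 24.3% and 26.2% of Tnfrsf10b in combination libraries, 14.0%, 14.4% and 33.3% in antiPD1 libraries, 6.83%, 6.49% and 7.44% in IFNa libraries and 3.12%, 4.01% and 6.82% in untreated libraries. The antibody-treated libraries were all above the others, and antiPD1 replicate 3, with little Tnfrsf10b, had the highest ratio of all. Fasl equalled 10.8%, 13.1% and 13.5% of Fas in combination libraries, 11.1%, 12.3% and 13.2% in antiPD1 libraries, 2.37%, 5.62% and 6.01% in IFNa libraries and 5.26%, 6.12% and 2.99% in untreated libraries. For this ratio antiPD1 replicate 3 was close to its group, in contrast to its levels of Fas and Fasl.

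Tnf equalled 1.67%, 1.87% and 3.54% of Tnfrsf1a in combination libraries, 1.73%, 1.64% and 1.60% in antiPD1 libraries, 1.01%, 0.621% and 1.03% in IFNa libraries and 0.413%, 0.235% and 0.811% in untreated libraries. Its antibody-treated libraries were again above the rest. Tnf also binds Tnfrsf1b, and equalled 8.19%, 11.4% and 20.1% of it in combination libraries, 12.5%, 10.7% and 4.94% in antiPD1 libraries, 16.8%, 6.73% and 11.8% in IFNa libraries and 6.04%, 3.94% and 9.50% in untreated libraries. The 4 groups overlapped for this ratio. The leukocyte receptor Tnfrsf1b equalled 20.4%, 16.4% and 17.6% of Tnfrsf1a in combination libraries, 13.8%, 15.4% and 32.4% in antiPD1 libraries, 5.97%, 9.22% and 8.77% in IFNa libraries and 6.84%, 5.96% and 8.53% in untreated libraries.

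**Figure D3:**
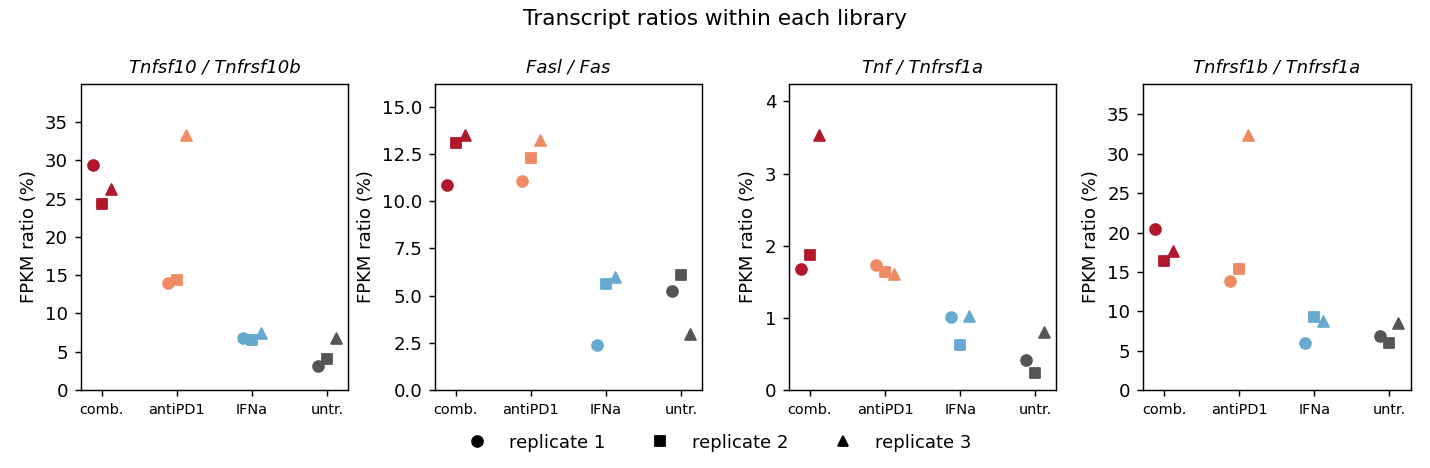
Ratio of FPKM values within each library, in percent (linear axes from 0), for Tnfsf10 over Tnfrsf10b, Fasl over Fas, Tnf over Tnfrsf1a and Tnfrsf1b over Tnfrsf1a; points are libraries, grouped from left to right as combination, antiPD1, IFNa and untreated. Tnfsf10 was 24.3% to 29.3% of Tnfrsf10b in combination libraries and 3.12% to 6.82% in untreated ones.

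Transcripts of the cells that carry these ligands moved with the same groups. In bulk samples, fewer cells of a type and less RNA per cell cannot be told apart. The summed level of 10 T cell markers (Cd3d, Cd8a, Lck and others) was 109, 119 and 138 CPM in combination libraries, 70.7, 150 and 318 CPM in antiPD1 libraries, 22.7, 55.5 and 56.1 CPM in IFNa libraries and 41.7, 31.5 and 40.6 CPM in untreated libraries. All 10 were higher than in untreated libraries, by a median log2 change of 1.87 in the combination and 2.44 in antiPD1. Of them, 3 were called higher in the combination and 10 in antiPD1 (edgeR, adjusted p below 0.05), beside 7.58% and 9.76% of all genes. The sum of 10 macrophage and monocyte markers (Csf1r, Lyz2, C1qa and others) was 2346, 1799 and 2075 CPM in combination libraries, 1413, 1365 and 5326 CPM in antiPD1 libraries, 531, 893 and 862 CPM in IFNa libraries and 561, 531 and 874 CPM in untreated libraries. All 10 of these were higher over untreated in both groups, with 5 called in the combination and 8 in antiPD1. AntiPD1 replicate 3 was the highest library for both sums, IFNa replicate 1 was among the lowest, and no T cell or macrophage marker was at 0 in any library. Natural killer cell markers, 6 in all, summed to 16.0, 16.1 and 16.1 CPM in combination libraries, 7.93, 15.7 and 30.9 CPM in antiPD1 libraries, 2.91, 8.87 and 9.28 CPM in IFNa libraries and 4.86, 5.48 and 6.08 CPM in untreated libraries, with 1 of them at 0 in IFNa replicate 2. For 6 B cell markers, whose cells also make lymphotoxins, the sums were 40.4, 35.7 and 35.6 CPM in combination libraries, 33.2, 55.3 and 88.8 CPM in antiPD1 libraries, 2.52, 8.21 and 7.89 CPM in IFNa libraries and 4.31, 4.60 and 7.45 CPM in untreated libraries. In both lists the antiPD1 group held the highest library. Over untreated, 5 natural killer markers were higher and 1 lower in both antibody groups, and all 6 B cell markers were higher. In antiPD1, 3 natural killer and 5 B cell markers were called higher, compared with 1 and 2 in the combination. Some lists of other cells were higher too. All 7 fibroblast markers were higher in combination and antiPD1 libraries over untreated, with 0 and 3 called. The 6 adult hepatocyte markers, none called, summed to 363 to 1845 CPM in combination and 308 to 2824 CPM in antiPD1 libraries. Their sums were 264 to 1296 CPM in IFNa and 163 to 444 CPM in untreated libraries, with antiPD1 replicate 3 and IFNa replicate 1 highest in their groups. Among 6 hepatoma and fetal liver markers, including Afp and Alb, 4 were lower and 2 higher in the combination over untreated. In antiPD1, 3 were lower and 3 higher, and 2 were called lower in both groups. These markers summed to 13302.5 to 18634.7 CPM in combination libraries, below the 20940.5 to 23733.8 CPM of untreated libraries. Their sums in antiPD1 (14098.5 to 25573.9 CPM) and IFNa libraries (18284.1 to 22395.1 CPM) overlapped the untreated range. The part of these cells in the levels of the 9 genes was not tested.

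A list of 15 type I interferon response genes (Ifit1, Isg15, Irf7 and others) summed to 1129, 1012 and 1198 CPM in combination libraries, 670, 873 and 1327 CPM in antiPD1 libraries, 545, 664 and 673 CPM in IFNa libraries and 356, 513 and 583 CPM in untreated libraries. All 15 were higher than in untreated libraries in the combination and in antiPD1, with 10 and 5 of them called. Between combination and antiPD1 the median log2 change was 0.42 over these interferon genes, -0.59 over the T cell markers and -0.29 over the macrophage markers, beside 0.60 for Tnfsf10, and no gene of these 3 lists was called in edgeR. For 12 interferon gamma and IRF1 genes that median was 0.19. Over untreated, all 12 were higher in the combination and in antiPD1, with 10 and 7 called. These genes summed to 1669 to 2340 CPM in combination, 1309 to 2824 CPM in antiPD1, 557 to 1162 CPM in IFNa and 621 to 1046 CPM in untreated libraries. For 10 TNF and NF-kB target genes, some of them also pathway genes, the median was -0.46. Over untreated, 7 were higher and 3 lower in the combination, with 1 called higher. In antiPD1, 9 were higher and 1 lower, with 2 called higher. The targets summed to 532 to 638 CPM in combination, 486 to 1188 CPM in antiPD1, 359 to 483 CPM in IFNa and 383 to 519 CPM in untreated libraries. For 6 neutrophil markers the median was 0.02. Over untreated, 5 were higher and 1 lower in each of these groups, with 5 called higher in the combination and 4 in antiPD1. The neutrophil markers summed to 108 to 184 CPM in combination, 95.8 to 203 CPM in antiPD1, 41.9 to 75.4 CPM in IFNa and 29.3 to 44.9 CPM in untreated libraries. These medians between combination and antiPD1 include antiPD1 replicate 3 and were not computed without it. Its macrophage marker sum was 5326 CPM, against 1413 and 1365 CPM in the other antiPD1 libraries and 1799 to 2346 CPM in the combination. Its T cell marker sum was 318 CPM, against 70.7 and 150 CPM there and 109 to 138 CPM in the combination. The Tnfsf10 difference was 0.92 without this library. The calls of marker and response lists, here and in the previous paragraph, come from the main edgeR fit. They were not counted with libraries left out. There 7.58% of all genes were called higher and 12.6% either way for the combination, and 9.76% and 14.8% for antiPD1. For antiPD1, 2.26% of all genes were called without antiPD1 replicate 3, and 0.0344% and 0.0412% without untreated replicates 1 and 2. For the combination, these latter shares were 0.557% and 0.797%. The part of these lists in the Tnfsf10 level was not tested either.

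**Figure D4:**
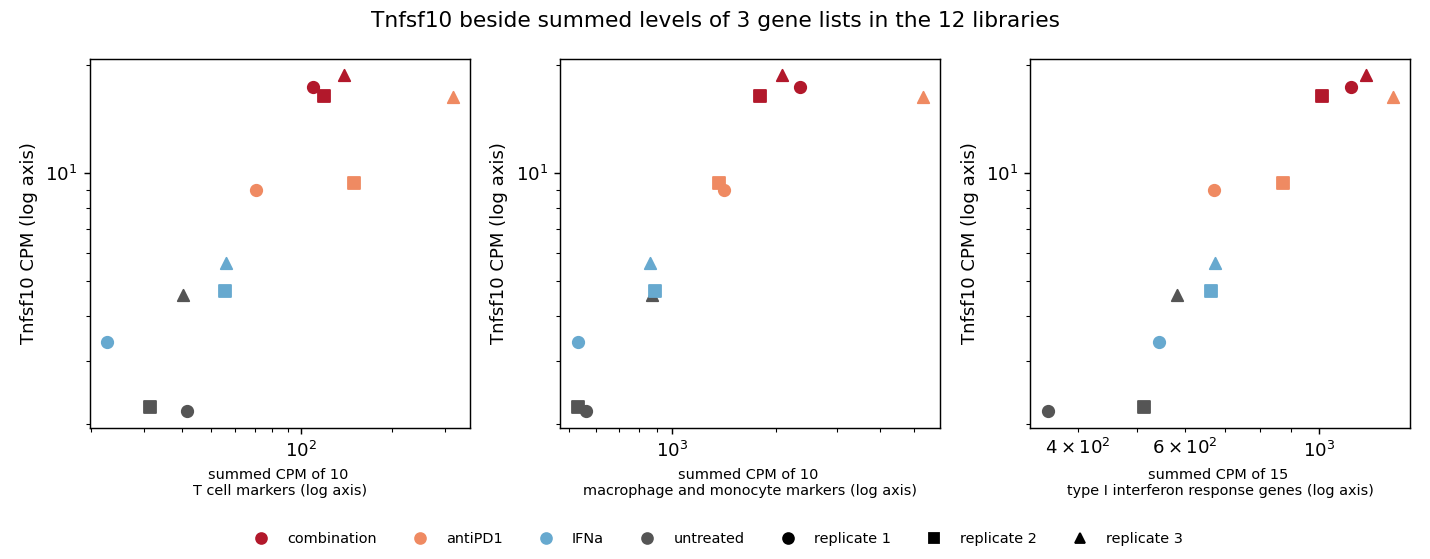
Tnfsf10 (CPM, vertical log axis) beside the summed CPM (horizontal log axis) of T cell markers, macrophage and monocyte markers and type I interferon response genes in the 12 libraries, coloured by group and shaped by replicate. The 3 combination libraries had the highest Tnfsf10 (16.4 to 18.7 CPM), while antiPD1 replicate 3 had the highest sum in each panel (318, 5326 and 1327 CPM).

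The 9 genes varied in different company across the 12 libraries. Tnfsf10, Fasl, Tnf, Fas and Tnfrsf1b varied together, with Pearson r of log2 CPM between 0.71 (Fasl and Tnf) and 0.90 (Tnfsf10 and Tnf), whereas Tnfsf10 had r of 0.43 with Lta, 0.04 with Tnfrsf10b and -0.23 with Tnfrsf1a. Ltb lay between, with r of 0.78 with Fasl, 0.75 with Fas, 0.65 with Tnfrsf1b, 0.56 with Tnfsf10 and 0.31 with Tnf. The tested genes most like Tnfsf10 were Themis2 (r of 0.99), Nod2, B430306N03Rik, Arhgap30, Gbp9, Ccnd2, Serpinb9 and Uba7 (r of 0.98 each), and r was 0.98 to 0.99 for all 8 in the 10 libraries left without antiPD1 replicate 3 and IFNa replicate 1. Fasl was most like Syce2, Cd160 and Cxcr6 (r of 0.98), and Tnfrsf1b was most like Soat1, Ctss and Fcgr3 (r of 0.99 or more). Tnf was most like Olr1 (0.97), 2610305D13Rik (0.96) and Afap1l2 (0.95), and Fas most like Ifi47 (0.95), Diaph3 and Fgr (0.94). The closest genes to Ltb were Dbnl (0.98), Tmco6 (0.97) and Mrpl24 (0.96), to Lta Myo19 (0.87), Slc7a3 (0.85) and Ttc14 (0.83), to Tnfrsf10b Zfp697 (0.97), Socs5 (0.95) and AI467606 (0.94), and to Tnfrsf1a Slc39a14, Stap2 (0.91) and Fga (0.90). In the 10 libraries the r of the 3 genes listed was 0.97 to 0.98 for Fasl, 0.99 for Tnfrsf1b, 0.96 to 0.98 for Tnf, 0.90 to 0.92 for Fas, 0.87 to 0.91 for Ltb, 0.88 to 0.90 for Lta, 0.80 to 0.91 for Tnfrsf10b and 0.81 to 0.91 for Tnfrsf1a. These correlations are a description: the points share the 4 groups, and the nearest of 14330 genes were picked.

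Downstream and beside the 9 genes, 65 of 66 listed pathway genes were tested. Over untreated, 11 rose and 2 fell in combination libraries, or 20% of those tested beside 12.6% of all genes, and 11 rose and 3 fell in antiPD1 libraries, or 21.5% beside 14.8%. Here and below, rose and fell mean called by edgeR, and by direction alone 39 of the 65 were higher in combination and 33 in antiPD1 libraries. This list was also chosen with earlier results of these data known, so its shares are a description. The adjusted p-values below, from the genome-wide fit, carry the same limit. In IFNa over untreated, combination over antiPD1, combination over IFNa and the interaction, 0 passed in the edgeR fit, while 2, 3, 23 and 3 had an unadjusted p below 0.05, and 0, 1, 10 and 0 passed in DESeq2. The median log2 change over the 65 was 0.10 in combination, 0.01 in antiPD1 and 0.02 in IFNa libraries.

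These counts also rested on single libraries. The antiPD1 count of 14 was 1 without antiPD1 replicate 3, 0 without untreated replicate 1 or 2, and 22 without IFNa replicate 1. The combination count of 13 was 1 and 0 when untreated replicates 1 and 2 were left out, 3, 2 and 0 when combination replicates 1, 2 and 3 were, and 20 when antiPD1 replicate 3 was. Without antiPD1 replicate 3 and IFNa replicate 1 together, 27 passed in the combination and 11 in antiPD1.

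Of 11 other receptors tested, 3 rose and 1 fell in both groups. Tnfrsf25, the death receptor DR3 of T cells, rose in the combination (log2 2.82 ± 0.45, edgeR adjusted p = 0.0112) and in antiPD1 (2.43 ± 0.45, adjusted p = 0.0191). It had 0.934 ± 0.053 CPM in combination, 0.713 ± 0.176 in antiPD1, 0.261 ± 0.099 in IFNa and 0.129 ± 0.057 in untreated libraries (SD, n = 3), where it was at 3 to 6 counts per library, close to the floor. Relt, a lymphoid receptor of the family, rose by 0.99 ± 0.21 on the log2 scale in the combination (edgeR adjusted p = 0.0208), and passed in antiPD1 as well, as did Tnfrsf14, the herpesvirus entry mediator, in both groups. Tnfrsf22, in mice a decoy receptor for TRAIL, fell in both. Its level was 37.1 ± 5.34 CPM in combination, 40.6 ± 13.1 in antiPD1, 74.4 ± 4.92 in IFNa and 69.3 ± 14.0 in untreated libraries, with log2 changes over untreated of -0.90 ± 0.23 (edgeR adjusted p = 0.0320) in combination and -0.77 ± 0.22 (adjusted p = 0.0425) in antiPD1. Tnfrsf22 has a close paralogue, Tnfrsf23, with which reads may be shared.

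Of 14 adaptors and kinases, 1 rose in the combination and 2 in antiPD1. Ripk3, the kinase that starts necroptosis, had 7.96 ± 0.346 CPM in combination, 10.4 ± 6.37 in antiPD1, 4.06 ± 0.913 in IFNa and 2.77 ± 0.850 in untreated libraries, and rose in both groups, by 1.90 ± 0.40 on the log2 scale in antiPD1 (edgeR adjusted p = 0.0207). Without antiPD1 replicate 3 and IFNa replicate 1 its antiPD1 log2 change was 1.30. Traf1, an NF-kB target that binds TNF receptor complexes, rose in antiPD1 (1.35 ± 0.33, edgeR adjusted p = 0.0264), and its call was lost without that pair of libraries. Its combination value was 0.99 ± 0.33. Mlkl, the executor of necroptosis, and Fadd did not pass, with log2 changes of 0.08 ± 0.14 and -0.19 ± 0.20 in the combination.

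Of 13 caspases and mitochondrial amplifiers, 0 passed in the combination in the edgeR fit, where 4 had an unadjusted p below 0.05. Casp8, the initiator caspase of death receptors, was level, with 87.9 ± 1.19 CPM in combination, 85.6 ± 5.52 in antiPD1, 83.0 ± 14.6 in IFNa and 87.2 ± 1.21 in untreated libraries.

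Of 14 inhibitors of death signalling, 4 rose and 1 fell in both groups. Bcl2, which guards mitochondria, rose in the combination (1.38 ± 0.24, edgeR adjusted p = 0.0141) and in antiPD1 (1.18 ± 0.24, adjusted p = 0.0207). Birc2, a ubiquitin ligase of the TNF receptor complex, rose in the combination (0.81 ± 0.17, edgeR adjusted p = 0.0212) and in antiPD1 (0.80 ± 0.17, adjusted p = 0.0213). Its relative Birc3 also passed in both, with 0.75 ± 0.17 in the combination (edgeR adjusted p = 0.0248). Bcl2a1b, a leukocyte survival gene with near-identical copies that makes its count uncertain, rose by 1.70 ± 0.41 on the log2 scale in antiPD1 (edgeR adjusted p = 0.0266) and passed in the combination. Xiap, the direct caspase inhibitor, fell in both, with 112 ± 7.71 CPM in combination, 112 ± 5.26 in antiPD1, 143 ± 20.4 in IFNa and 156 ± 0.535 in untreated libraries. Its log2 changes over untreated were -0.47 ± 0.10 (edgeR adjusted p = 0.0241) in combination and -0.48 ± 0.10 (adjusted p = 0.0215) in antiPD1. Cflar, the decoy of caspase-8, did not pass, at 0.29 ± 0.12 in the combination and 0.21 ± 0.12 in antiPD1.

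Of 13 genes of the NF-kB arm, 3 rose in the combination and 2 in antiPD1. Map3k14, the kinase of the alternative NF-kB pathway, had 49.9 ± 3.67 CPM in combination, 40.7 ± 6.86 in antiPD1, 30.2 ± 10.6 in IFNa and 22.4 ± 2.15 in untreated libraries, and rose by 1.16 ± 0.23 on the log2 scale in the combination (edgeR adjusted p = 0.0179). It also passed in antiPD1, as did Rnf31, a subunit of the linear ubiquitin ligase, in both groups, and Nfkbie, an NF-kB inhibitor, passed in the combination. Several of these genes, among them Tnfrsf25, Bcl2, Bcl2a1b and Traf1, are also made by leukocytes, whose markers were higher in the same libraries, and their part in these changes was not tested.

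**Figure D5:**
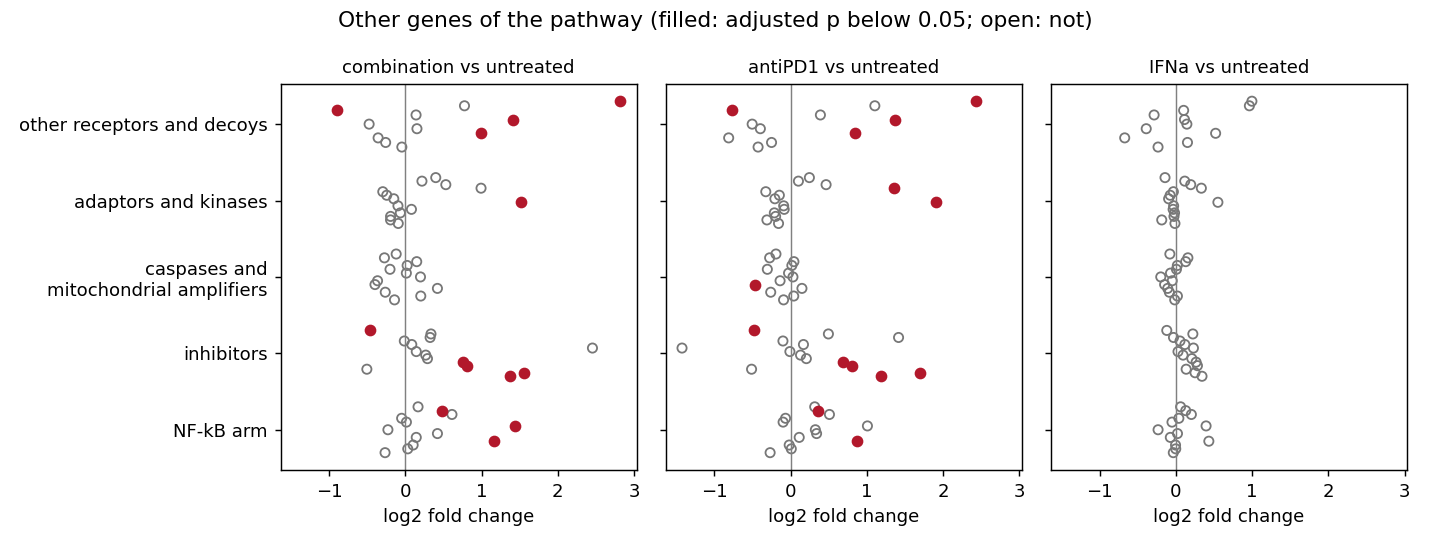
Log2 fold changes of the 65 other pathway genes over untreated libraries, by role, for combination, antiPD1 and IFNa from left to right; filled points passed an adjusted p below 0.05 in edgeR and open points did not. Tnfrsf25 was the highest of the called genes in the combination (2.82) and in antiPD1 (2.43), and no point was filled for IFNa.

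Where no pathway gene passed, those with the smallest p are given as values. For IFNa over untreated they were Relt (log2 0.52 ± 0.21), Ngfr and Tnfrsf25 (1.0 ± 0.47), with edgeR adjusted p of 0.881 to 0.885. For combination over IFNa they were Ltbr, the lymphotoxin beta receptor (-0.41 ± 0.09, edgeR adjusted p = 0.0541), Tnfrsf22 (-1.0, adjusted p = 0.0619) and Tnfrsf25 (1.82, adjusted p = 0.0621). Tnfrsf22 passed there when antiPD1 replicate 3 and IFNa replicate 1 were left out (adjusted p = 0.0158). For combination over antiPD1 they were Faim2 (3.88 ± 0.87, edgeR adjusted p = 0.991), Tnfaip3 and Eda2r, and for the interaction Faim2, Ngfr and Eda2r. Faim2, a Fas-inhibiting membrane protein, had 114 ± 32.6 CPM in combination, 7.69 ± 6.31 in antiPD1, 24.3 ± 2.11 in IFNa and 20.7 ± 24.7 in untreated libraries.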

How the data were processed

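Total RNA of 12 libraries was sequenced, 3 in each of 4 groups taken from the treatment labels. The submitters' processing notes name the tools HISAT2 2.1.0, HTSeq and Cufflinks and the build mm10. What each tool did, the gene models and the strand setting were not given in the sources used here. Whole-number counts per gene and, in another table, FPKM for the same genes and libraries were deposited by the authors. Columns were matched to samples by name.

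In R 4.3.3, edgeR 4.0.16 kept genes by filterByExpr (minimum count 10), scaled the libraries by TMM and fitted 1 mean per group over the 12 libraries in its robust quasi-likelihood F test. The Benjamini-Hochberg adjustment ran over 14330 genes, and an adjusted p below 0.05 was called. The standard error of a log2 change is its size divided by the square root of F. FPKM was used for levels and ratios between genes. The fit was tested on simulated data. The samples were treated as unpaired, and a check of the replicate numbers could not settle whether they were paired.

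The 9 genes and all lists were chosen with earlier results of these data known. Besides the 9, the text names, per comparison, up to 6 pathway genes that passed in each direction by adjusted p (where none passed, the 3 with the smallest p), and the 8 genes most correlated with Tnfsf10 and 3 for each other gene; list members that also passed or are given as not passing, and examples, were added after their values were seen. Coordinates are from GENCODE M21 on mm10, in which 20665 symbols matched, and promoters from RefSeq. The result of 1 pathway gene and of 1 motif is not reported here.

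Alternatives were RLE size factors, no count filter, a block for the replicate number, DESeq2 1.42.0, limma-trend (limma 3.58.1) on log2(FPKM + 1) and log2(FPKM + 0.1) of genes with an FPKM of at least 1 in 3 libraries, the first also without a filter, only the groups compared, leaving out each library, and leaving out IFNa replicate 1 and antiPD1 replicate 3 together. Library totals of 31.3 to 38.5 M put 3 counts at 0.0786 to 0.102 CPM; floors cover counting error only.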

Additional observations from a re-analysis of the deposited data

Results flagged for a closer look

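Eda2r, the X-linked receptor of ectodysplasin A2 and 1 of the pathway genes, was picked out by a rule on its own values. It met the rule because IFNa and untreated libraries, and combination and antiPD1 libraries, did not overlap, in opposite directions. The separations below were therefore set by the choice, and the share of all genes that meet the rule was not computed. The highest IFNa library, at 18.6 CPM, was just below the lowest untreated library, at 18.8 CPM. All combination libraries were above all antiPD1 libraries, with means of 20.0 ± 1.90 and 15.4 ± 3.47 CPM, and all IFNa libraries were below all untreated libraries, with means of 17.6 ± 1.71 and 20.6 ± 1.81 CPM (SD, n = 3 each). The fitted difference between both effects (the interaction) was 0.61 ± 0.24 on the log2 scale, with an edgeR adjusted p of 0.799, so the difference did not pass the test.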

How the results depend on the processing

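No log2 change of the 9 genes or of a named pathway gene turned the direction of a called value in any alternative. With 3 libraries a group, counts of calls depend on the setting and on single libraries, and the cause was not tested. Fasl and Lta rest on under 100 counts in each library, and so does Tnf except in combination replicate 3 (167 counts). The part of depth in the errors of these genes was not tested.

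For combination over untreated, edgeR called 1803 genes: 2979 in DESeq2, 996 and 1077 in limma-trend with 1 and 0.1 added to FPKM, 3789 with only the groups compared, and 4200 without IFNa replicate 1 and antiPD1 replicate 3. For antiPD1 over untreated the count was 2126: 3291 in DESeq2, 947, 1046 and, without a filter, 732 in limma-trend, and 0 with only the groups compared, where 0 pathway genes were called too. For combination over IFNa it was 137: 1661 in DESeq2, 542 with the replicate number as a block, 1132 with only the groups compared and 1305 without both libraries. For IFNa over untreated it was 0: 37 in DESeq2 and 5 without both libraries. For combination over antiPD1 it was 0, and 15 in DESeq2. For the interaction it was 0: 55 in DESeq2 and 2 without both libraries.

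Of the pathway genes, 13 were called for combination over untreated: 21 in DESeq2, 26 with only the groups compared and 27 without both libraries. For antiPD1 over untreated 14 were called, and 6, 6 and 5 in limma-trend. For combination over antiPD1 1 was called in DESeq2. For combination over IFNa 0 were called: 1 with RLE size factors, 10 in DESeq2, 6 with the replicate block, 1 in limma-trend without a filter, 9 with only the groups compared and 12 without both libraries.

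Leaving out each library in turn gave 33 to 2917 genes for combination over untreated, 5 to 3027 for antiPD1 over untreated, 0 to 3 for IFNa over untreated, 0 to 1452 for combination over IFNa, 0 to 0 for combination over antiPD1 and 0 to 1 for the interaction. For the pathway genes it gave 0 to 20 for combination over untreated, 0 to 22 for antiPD1 over untreated and 0 to 11 for combination over IFNa.

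Replicate numbers are shared across groups. The 18 same-numbered pairs had correlations of their deviations from -0.30 to 0.50, with 8 above 0.1. No reference value for unpaired libraries was computed, so these correlations cannot show whether the samples were paired. The main fit treated them as unpaired. The replicate block moved the counts to 2388 for antiPD1 over untreated and 2174 for combination over untreated.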
